A study of Mus musculus with 14 samples.

Results

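The 10 genes described here belong to the machinery that displays peptides to T cells, and they were taken by symbol from the 55335 genes of the expression matrices. Class II was represented by 5 genes: H2-Aa, H2-Ab1 and H2-Eb1, which encode chains of the class II molecules, Cd74, the invariant chain that guides class II molecules through the cell, and Ciita, the transactivator of the class II genes. Class I was represented by the other 5: H2-K1 and H2-D1, which encode the classical heavy chains, B2m, the light chain beta-2 microglobulin, Tap1, a subunit of the peptide transporter, and Nlrc5, the transactivator of class I genes. All 10 symbols were found once and all had UMIs in microglia.

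Class I molecules are carried by most nucleated cells and show peptides made inside the cell to CD8+ T cells. Class II molecules are carried mainly by macrophages, dendritic cells and B cells and show peptides from engulfed material to CD4+ T cells. Interferon-gamma is known to raise both sets. Microglia, the macrophages of the spinal cord tissue itself, are known for low class II levels in healthy cords and higher levels in disease, whereas the macrophages of the meninges and vessels (border-associated macrophages) carry class II in health.

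The samples were 14 droplet libraries of dissociated whole mouse spinal cord, depleted of myelin. SOD1G93A mice (3 libraries) carried a mutant human SOD1 transgene that causes motor neuron disease and were of the strain B6SJL-Tg(SOD1*G93A)1Gur/J. Clec7a-KO mice (4 libraries) lacked Clec7a, a pattern recognition receptor of myeloid cells, and were of the strain B6.129S6-Clec7atm1Gdb/J. SOD1G93A/Clec7a-KO mice (4 libraries) carried the transgene and the knockout, and nTg mice (3 libraries), called WT in the design text, carried neither. All were labelled P115-120 (postnatal days), a stage the design text calls mid-disease. The labels name no strain for the nTg mice beyond that word and none beyond the genotype for the SOD1G93A/Clec7a-KO mice. The labels number the replicates and do not say whether each came from a separate animal, so p-values measure the spread between libraries.

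Total UMIs per library ranged from 28819852 to 141204910, and 89225 of 108892 barcodes were kept. Clec7a UMIs in the kept cells matched the labels, with 49311 to 88144 in SOD1G93A, 644 to 1615 in nTg, 30 to 104 in Clec7a-KO and 68 to 205 in SOD1G93A/Clec7a-KO libraries. By Xist, 2 of 3 nTg, 1 of 4 Clec7a-KO, 0 of 3 SOD1G93A and 1 of 4 SOD1G93A/Clec7a-KO libraries came from females. The library numbers in the labels were 1, 5 and 6 for SOD1G93A and 8, 9 and 12 for nTg, so these groups did not interleave. Cell classes were rebuilt by clustering without the antigen presentation genes and named from marker genes, so each name below stands for cells resembling that type. Microglia were the largest class, with 50022 cells and 959 to 7490 per library.

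On GRCm38, the build the processing notes call mm10, 6 of the 10 genes lay within the MHC on chromosome 17. These were H2-K1 (17: 33996017 to 34000347, minus strand), Tap1 (34187553 to 34197225, plus), H2-Ab1 (34257689 to 34269419, plus), H2-Aa (34282744 to 34287823, minus), H2-Eb1 (34305867 to 34316674, plus) and H2-D1 (35262730 to 35267499, plus). B2m lay on chromosome 2 (122147686 to 122153083, plus), Nlrc5 on chromosome 8 (94434356 to 94527272, plus), and Ciita on chromosome 16 (10480059 to 10528418, plus), and Cd74 lay outside the MHC as well. All 10 are annotated as protein coding. Because H2 haplotypes differ between mouse strains and class I heavy chains resemble each other, reads of one H2 gene can be lost or counted for another. The strain labels differ between the groups, and genotype and haplotype cannot be told apart for the H2 genes.

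Promoters of many MHC class I and class II genes are known to share a short array of elements, in which a CRE-like X2 box (TGACG) and a reversed CCAAT box (ATTGG), bound by CREB and NF-Y family factors, sit at a fixed distance. RefSeq promoter sequences (GRCm38.p6) were at hand for 6 of the 10 members, and the 150 bases that end just before the start annotated by RefSeq are shown 5′ to 3′ on the gene's strand because these members rose together in microglia. Capitals mark matches, on either strand, to CCAAT and to TGACG, to the interferon-stimulated element in the form of 2 TTTC repeats with any 2 bases between them, and to the kappa B site in the form GGGGATTCC.
H2-Aa, chr17:34287824-34287973, minus strand: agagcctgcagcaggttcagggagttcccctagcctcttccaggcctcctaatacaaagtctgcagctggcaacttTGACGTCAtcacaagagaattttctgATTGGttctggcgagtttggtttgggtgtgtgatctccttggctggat
H2-Eb1, chr17:34305717-34305866, plus strand: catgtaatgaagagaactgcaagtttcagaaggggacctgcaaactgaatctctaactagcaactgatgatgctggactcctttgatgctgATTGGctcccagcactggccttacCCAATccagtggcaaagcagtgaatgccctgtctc
H2-K1, chr17:34000348-34000497, minus strand: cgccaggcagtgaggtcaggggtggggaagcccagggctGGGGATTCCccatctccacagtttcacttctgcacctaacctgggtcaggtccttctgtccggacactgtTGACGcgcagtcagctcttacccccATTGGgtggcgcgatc
H2-D1, chr17:35262944-35263093, plus strand: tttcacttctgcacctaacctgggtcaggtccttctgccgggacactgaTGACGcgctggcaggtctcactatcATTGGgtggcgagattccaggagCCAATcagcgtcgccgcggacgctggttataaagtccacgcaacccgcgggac
B2m, chr2:122147537-122147686, plus strand: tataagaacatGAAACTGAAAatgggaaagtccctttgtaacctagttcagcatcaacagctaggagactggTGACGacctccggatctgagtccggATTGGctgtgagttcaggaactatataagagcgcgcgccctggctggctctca
Tap1, chr17:34187406-34187555, plus strand: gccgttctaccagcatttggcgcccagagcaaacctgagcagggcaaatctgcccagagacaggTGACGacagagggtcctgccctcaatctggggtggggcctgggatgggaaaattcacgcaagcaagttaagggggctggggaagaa
TGACG lay before ATTGG in 4 of them, with the first bases of the motifs 25 bases apart in H2-K1, H2-D1 and B2m and 26 apart in H2-Aa, where TGACG overlaps its own reverse form. The same order at exactly 25 bases occurred in 13 of 32851 promoter windows of this length (0.0396%), and the 12 genes concerned also included H2-M3, another class I gene. This spacing was looked for after the sequences were seen. H2-Eb1 held 2 CCAAT matches and no TGACG, and Tap1 held TGACG alone. H2-K1 had a second annotated start, whose window (chr17:34000334-34000483) is not shown. That window held 2 CCAAT matches and the same spacing of 25 bases. The H2-D1 window lies within the gene span given above. Over all windows, CCAAT occurred in 24.5%, TGACG in 13.3%, the interferon-type motif in 1.59% and GGGGATTCC in 0.11%. The last occurred in H2-K1 and the interferon-type motif in B2m. A match describes the letters and is no measured binding.

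The class II genes and the class I genes were distributed over the cell classes in different ways. Levels are given as CPM, the UMIs of a gene scaled to one common total for each class in a library, for libraries with at least 20 cells of the class, and are compared between classes and not between genes. In classes tested below, such as microglia, the total of a library was multiplied by a scaling factor. In classes not tested, such as border-associated macrophages and T and NK cells, it was not. Border-associated macrophages (476 cells, 11 libraries) had the highest class II levels among the classes with replicate libraries: H2-Aa was at 4377 ± 1230 CPM (SD, n = 11), against 22.2 ± 16.9 (n = 14) in microglia. For H2-Ab1 these levels were 3482 ± 1102 and 43.3 ± 29.2 CPM, and for H2-Eb1 3473 ± 1023 and 11.9 ± 8.06 CPM. Cd74 was at 13560 ± 8623 against 414 ± 280 CPM and Ciita at 52.0 ± 24.5 against 0.296 ± 0.208 CPM. For each of the 5, the lowest border-associated macrophage library lay above the highest microglial library. Pooled over libraries, a class of 65 monocyte-like cells, which was also led by the dendritic cell genes Cd209a, Ccl17 and Ccl22, had 7689 CPM of H2-Aa (95% interval 7468 to 7916, counting error only), and 58 B cells had 3146 CPM (2924 to 3381).

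H2-K1, Tap1 and Nlrc5 were highest in T and NK cells (635 cells, 9 libraries), where the lowest library lay above the highest microglial one for each of them. H2-K1 was at 3227 ± 512 CPM (SD, n = 9) in T and NK cells and 922 ± 354 CPM (n = 14) in microglia. Tap1 was at 137 ± 28.0 and 46.0 ± 17.4 CPM, and Nlrc5 at 42.6 ± 9.24 and 4.67 ± 3.02 CPM. The 9 libraries were 3 of SOD1G93A, 4 of SOD1G93A/Clec7a-KO, 2 of Clec7a-KO and none of nTg, so the microglial set differs from them in its groups. H2-D1 and B2m overlapped between these classes. In SOD1G93A libraries alone, H2-D1 was at 3001 ± 347 CPM (n = 3) in T and NK cells and 2189 ± 845 CPM (n = 3) in microglia, and B2m at 3184 ± 716 and 4366 ± 2005 CPM. The microglial values carry scaling factors of 0.849 to 0.932 and those of T and NK cells carry none. The part of this in the order was not tested. Endothelial cells were the highest non-immune class for H2-K1 (747 ± 198 CPM, n = 14) and H2-D1 (1250 ± 340 CPM), and ependymal cells, which line the central canal, were low at 159 ± 83.2 and 137 ± 81.9 CPM. In these scaled values the order of endothelial cells and microglia depended on the group. Endothelial H2-D1 stood at 114% to 162% of the microglial level of the same library in nTg and 126% to 141% in Clec7a-KO, but at 49.5% to 73.2% in SOD1G93A and 48.1% to 68.3% in SOD1G93A/Clec7a-KO. For H2-K1 these ranges were 83.0% to 140%, 95.6% to 109.5%, 66.8% to 74.6% and 54.9% to 80.2%. The scaling factors of microglia were 1.05 to 1.25 in libraries without the transgene and 0.772 to 0.932 in those with it. Those of endothelial cells were 0.947 to 1.03 and 0.963 to 1.06. The percentages carry this scaling as well as the counts, and its part in the order was not tested.

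**Figure D1:**
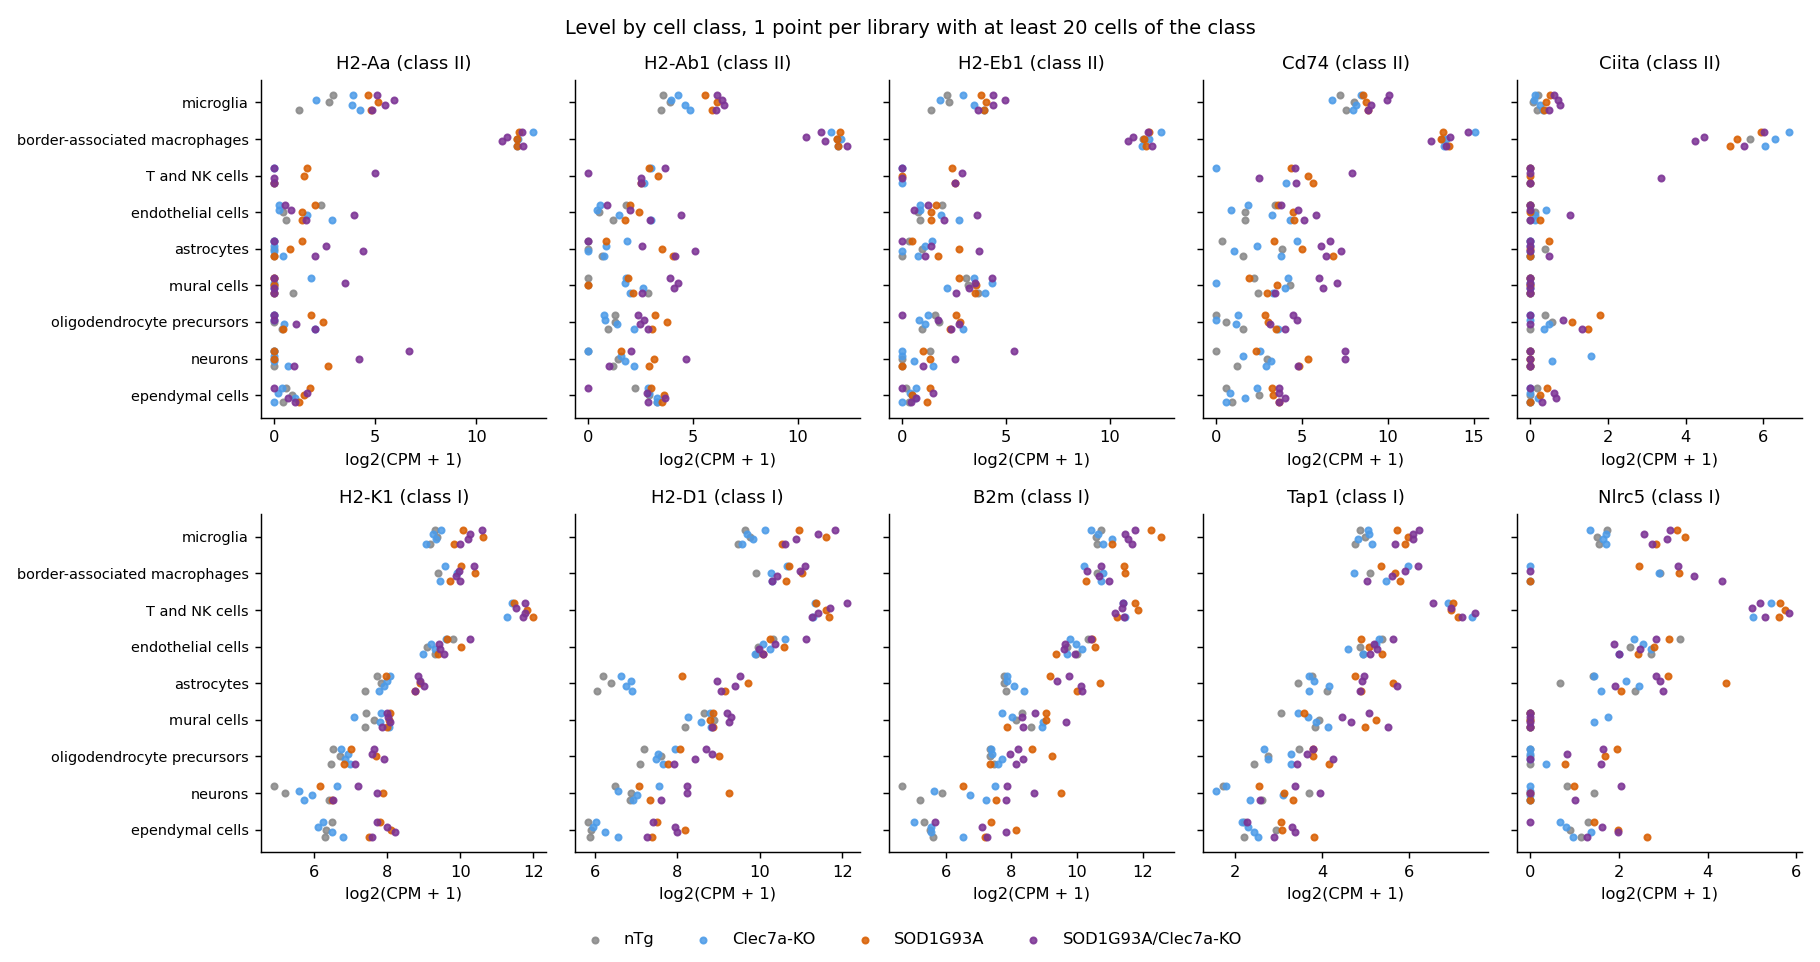
Level of each of the 10 genes by cell class, as log2(CPM + 1), with 1 point per library that held at least 20 cells of the class and colours for the 4 groups. The class II genes of the upper row stand apart in border-associated macrophages, whereas among the class I genes of the lower row, H2-K1, Tap1 and Nlrc5 are highest in T and NK cells and H2-D1 and B2m overlap between T and NK cells and microglia.

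Microglial class II levels were several times higher in SOD1G93A than in nTg libraries for the chain genes. H2-Aa was at 26.8, 34.3 and 23.99 CPM in the SOD1G93A libraries and at 1.33, 5.51 and 6.41 CPM in the nTg libraries. It was at 27.6, 43.4, 60.4 and 32.9 CPM in SOD1G93A/Clec7a-KO and at 18.1, 13.4, 3.16 and 13.7 CPM in Clec7a-KO libraries. Every library with the transgene lay above every library without it. H2-Ab1 was at 59.8, 70.0 and 47.1 CPM in SOD1G93A against 10.2, 14.1 and 10.7 CPM in nTg. In the knockout arms it was at 67.0, 89.6, 83.2 and 70.0 CPM with the transgene and 28.3, 23.5, 14.3 and 18.2 CPM without it. H2-Ab1 separated the libraries in the same manner, with no overlap. How many of all genes did so was not counted.

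H2-Eb1 ranged from 12.8 to 15.3 CPM in SOD1G93A and from 1.58 to 3.80 CPM in nTg libraries. Its range was 11.6 to 30.2 CPM in SOD1G93A/Clec7a-KO and 2.57 to 14.3 CPM in Clec7a-KO, so the knockout arms overlapped. Cd74 was at 453, 427 and 371 CPM in SOD1G93A and 188, 259 and 147 CPM in nTg. It reached 455, 506, 976 and 1042 CPM in SOD1G93A/Clec7a-KO against 244, 275, 106 and 343 CPM in Clec7a-KO. Ciita rested on few molecules, 74 UMIs over the SOD1G93A microglia and 7 over the nTg microglia, and ranged from 0.274 to 0.409 and from 0.0535 to 0.149 CPM. The ratio of its pooled counts was 2.23 (exact 95% interval 1.03 to 5.73, counting error only).

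All 5 class II genes rose in microglia of SOD1G93A against nTg (edgeR quasi-likelihood test on summed counts, Benjamini-Hochberg adjusted over 16654 genes, threshold 0.05), where 31.7% of all tested genes were called in either direction, 19.2% higher and 12.5% lower. The log2 fold change was 2.74 (SE 0.57, adjusted p = 0.00219) for H2-Aa and 2.34 (SE 0.24, adjusted p = 7.68e-06) for H2-Ab1. For H2-Eb1 it was 2.29 (SE 0.50, adjusted p = 0.00316). The 2 genes that serve the chains were closer to the threshold, Ciita at 1.58 (SE 0.51, adjusted p = 0.0297) and Cd74 at 1.08 (SE 0.39, adjusted p = 0.0478). With sex as a covariate, which this comparison can hardly separate from genotype, the Cd74 estimate was 0.88 (adjusted p = 0.171) and Ciita was not called (adjusted p = 0.112). Cd74 also missed the threshold when any one of 10 libraries was left out, that is, any library but the first SOD1G93A/Clec7a-KO, the second nTg and the third and the fourth Clec7a-KO (adjusted p = 0.0532 to 0.157 over these 10). Ciita missed it without the second or the third SOD1G93A or the first or the second nTg library (adjusted p = 0.0614 to 0.119), by DESeq2 (adjusted p = 0.0816) and with no filter on low counts (adjusted p = 0.079), and it did not pass the filter on low counts without the second, the third or the fourth SOD1G93A/Clec7a-KO library. Ciita thus entered the test through libraries of a group where it was high, and its call adds little to those of the chain genes. The median over the 5 was 2.29, and that over all tested genes 0.003.

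**Figure D2:**
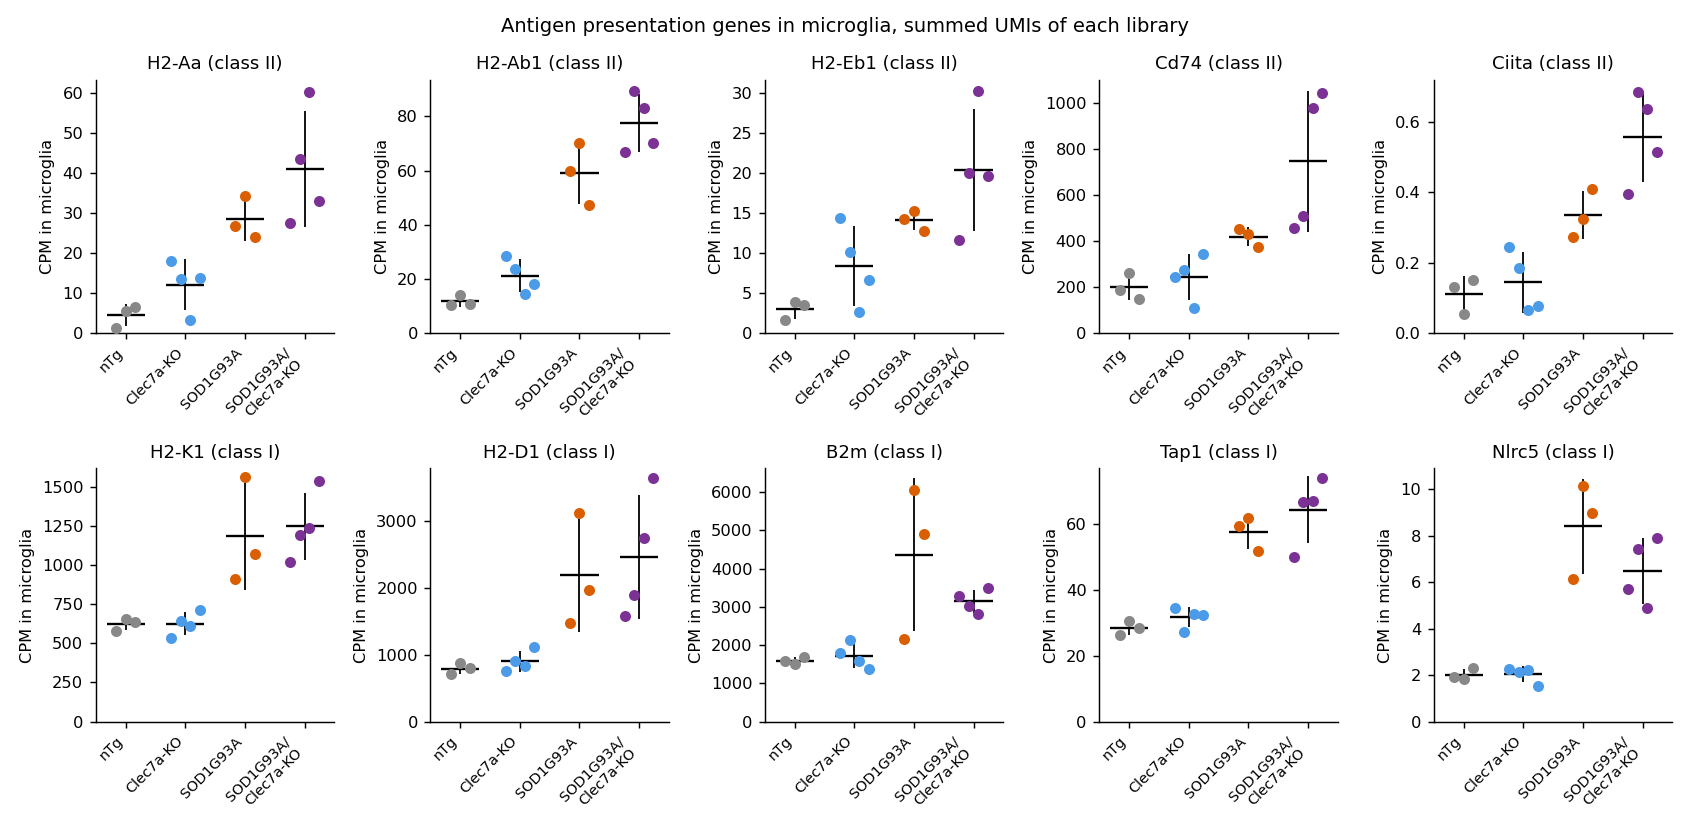
CPM of each of the 10 genes in microglia, with 1 point per library, a horizontal bar at the group mean and a vertical line of 1 SD to each side, for the 4 groups. The libraries with the transgene lie above those without it in 9 panels, and H2-Eb1 overlaps through the Clec7a-KO libraries. Of all 16654 tested genes, 31.7% were called in SOD1G93A against nTg and 45.2% in SOD1G93A/Clec7a-KO against Clec7a-KO. The share of all genes that separates the libraries in this way was not counted. The levels carry the scaling factors of microglia, and the part of these factors in the separation was not tested.

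The 5 class I genes were also higher in microglia of SOD1G93A than of nTg libraries. H2-K1 was at 913, 1565 and 1071 CPM in SOD1G93A and 581, 657 and 638 CPM in nTg microglia. H2-D1 was at 1474, 3121 and 1973 CPM in SOD1G93A and 704, 870 and 795 CPM in nTg. B2m was uneven within SOD1G93A, with 2147, 6046 and 4906 CPM against 1570, 1512 and 1694 CPM in nTg. The second SOD1G93A library was the highest for all 5 class I genes, and SOD1G93A and nTg libraries did not overlap for any of them. The share of all genes without overlap was not counted. These levels, like the class II levels above, carry the scaling factors, 0.849 to 0.932 in SOD1G93A and 1.21 to 1.25 in nTg microglia. The part of these factors in the separation and in the fold changes was not tested. Tap1 was at 59.4, 62.1 and 51.8 CPM against 26.2, 30.6 and 28.4 CPM. Nlrc5 was at 6.16, 10.1 and 8.97 CPM against 1.94, 1.82 and 2.31 CPM.

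All 5 class I genes rose in SOD1G93A against nTg microglia. Nlrc5, the transactivator, had the largest log2 fold change at 2.07 (SE 0.25, adjusted p = 3.18e-05), followed by H2-D1 at 1.47 (SE 0.32, adjusted p = 0.00283) and B2m at 1.46 (SE 0.29, adjusted p = 0.00183). Tap1 rose by 1.02 (SE 0.15, adjusted p = 0.000168) and H2-K1 by 0.92 (SE 0.21, adjusted p = 0.00443). The median over the 5 was 1.46. Of markers of other cell types in microglia, the 7 endothelial ones summed to 51.6 to 95.7 CPM in nTg, 43.5 to 71.8 in Clec7a-KO, 149 to 186 in SOD1G93A and 78.4 to 218 in SOD1G93A/Clec7a-KO, with 1 called higher and 1 lower in SOD1G93A against nTg. Erythrocyte markers summed to 0.194 to 2.19 CPM in nTg, 1.40 to 2.44 in Clec7a-KO, 0.128 to 189 in SOD1G93A and 1.43 to 93.6 in SOD1G93A/Clec7a-KO, with 4 of 4 tested called higher. Their part in the class I change was not tested.

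With Clec7a deleted in both arms, the same 10 genes were higher in SOD1G93A/Clec7a-KO than in Clec7a-KO microglia, where 45.2% of all tested genes were called, 24.9% higher and 20.3% lower. In class II, the log2 fold changes were 1.75 for H2-Aa (SE 0.46, adjusted p = 0.00649), 1.87 for H2-Ab1 (SE 0.20, adjusted p = 6.62e-06) and 1.25 for H2-Eb1 (SE 0.40, adjusted p = 0.0206). Cd74 rose by 1.62 (SE 0.34) and Ciita by 1.77 (SE 0.41). In class I, they were 1.00 for H2-K1, 1.45 for H2-D1, 0.87 for B2m, 1.02 for Tap1 and 1.65 for Nlrc5, with adjusted p from 2.7e-05 to 0.0113. The median was 1.75 in class II and 1.02 in class I. H2-Eb1 was the member whose groups overlapped, and it was not called without the third SOD1G93A/Clec7a-KO library (adjusted p = 0.0892) or with only these groups in the fit (adjusted p = 0.0539).

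Deleting Clec7a gave no call among the 10 genes in microglia, with or without the transgene. Between SOD1G93A/Clec7a-KO and SOD1G93A microglia, 3 of 16654 genes were called (0.018%), and none was a member by edgeR or DESeq2. Cd74 was higher by 0.84 (95% interval 0.02 to 1.65, adjusted p = 0.437) and was the only member with an unadjusted p under 0.05, beside 1889 of all 16654 genes. For Cd74 the 4 SOD1G93A/Clec7a-KO libraries all lay above the 3 SOD1G93A libraries, by a narrow margin. How many of all genes separated these groups was not counted. The other 4 class II estimates lay between 0.39 (H2-Ab1, interval -0.08 to 0.86) and 0.73 (Ciita, interval -0.07 to 1.53). The class I estimates were 0.08 for H2-K1 (interval -0.36 to 0.51), 0.17 for H2-D1 (-0.48 to 0.82), 0.16 for Tap1 (-0.15 to 0.47), -0.47 for B2m (-1.07 to 0.13) and -0.38 for Nlrc5 (-0.86 to 0.09).

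Between Clec7a-KO and nTg microglia 4 genes were called (0.024%), none of them a member by edgeR or DESeq2. H2-Aa, H2-Ab1 and H2-Eb1 had an unadjusted p under 0.05, with log2 differences of 1.52 (95% interval 0.32 to 2.71), 0.86 (0.37 to 1.36) and 1.57 (0.50 to 2.63), but each adjusted p was 1. Over all genes, 404 of 16654 had an unadjusted p under 0.05 in this comparison. For H2-Ab1 the 4 Clec7a-KO libraries lay above the 3 nTg libraries, and for H2-Aa and H2-Eb1 the groups overlapped through the third Clec7a-KO library. Class I estimates in this comparison lay between -0.002 (H2-K1, interval -0.44 to 0.44) and 0.19 (H2-D1, interval -0.46 to 0.84). The effect of the deletion did not differ detectably between mice with and without the transgene: 0 of the 10 genes, and 0 of all 16654, passed the test of that difference, and 0 of the 10 had an unadjusted p under 0.05. The 4 comparisons share libraries with one another.

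Class II UMIs were detected in a minority of microglia at the depths examined. A cell without such a UMI can still hold the transcript, and the share rose with depth. Its mean in SOD1G93A was 5.73%, 9.66% and 15.99% with cells thinned to 1000, 2000 and 4000 UMIs. Counting a cell as positive when it had a UMI of H2-Aa, H2-Ab1 or H2-Eb1, after every cell was thinned to 2000 UMIs, 9.03%, 11.4% and 8.57% of microglia were positive in SOD1G93A and 2.53%, 2.18% and 2.14% in nTg libraries. The shares were 10.7%, 13.3%, 13.7% and 12.5% in SOD1G93A/Clec7a-KO and 4.03%, 3.23%, 2.99% and 3.27% in Clec7a-KO. Without thinning they ranged from 26.3% to 44.4% in libraries with the transgene and from 7.28% to 14.3% in those without, at median depths of 5373 to 21845 UMIs per cell. Thinning left out 26 to 149 shallower microglia per library. Ependymal cells gave 0 to 2.70% at the same depth and mural cells 0.883% to 4.63%. The nTg microglial shares lay within that ependymal range but above the 1.17% to 1.73% of nTg ependymal cells, and the Clec7a-KO shares lay above the ependymal range but within the mural one. These classes are not free of class II transcripts, since H2-Eb1 in mural cells of nTg libraries stood at 208% to 723% of its microglial level, so how much of the low shares is background was not tested. In border-associated macrophages 43.7% to 79.3% were positive.

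The mean share was 9.66% ± 1.51 (SD, n = 3) in SOD1G93A and 2.28% ± 0.22 (n = 3) in nTg microglia, a difference of 7.38 percentage points (exact two-sided permutation test, p = 0.1, the smallest this design can give). It was 12.6% ± 1.33 (n = 4) in SOD1G93A/Clec7a-KO and 3.38% ± 0.45 (n = 4) in Clec7a-KO, a difference of 9.18 points (exact permutation p = 0.0286, also the smallest possible). SOD1G93A/Clec7a-KO exceeded SOD1G93A by 2.9 points with overlapping groups (exact permutation p = 0.114) and Clec7a-KO exceeded nTg by 1.1 points (exact permutation p = 0.0571, the smallest possible). Adjusted over these 4 comparisons, each p was 0.114.

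Counted without thinning, and so at the unequal depths given above, cells with 10 or more class II UMIs made up 1.53% to 3.94% of microglia in libraries with the transgene and 0.166% to 0.677% in those without. The 5% of microglia with the most class II UMIs held 55.8% to 69.8% of these UMIs in libraries with the transgene. In the others it was 67.5% to 90.2%, but 85.7% to 92.7% of microglia there had no class II UMI, so these ranges do not compare like with like. Markers of border-associated macrophages in microglia are given beside these values. Mrc1, at 719 to 2059 CPM in border-associated macrophages, was at 0.155 to 0.883 CPM in microglia of all groups and was not called. Cd163, at 160 to 710 CPM in those macrophages, did not exceed 0.0573 CPM. Of the 6 of 9 such markers that could be tested, 4 rose in SOD1G93A microglia: Ms4a7 (log2 fold change 7.49), Pf4 (4.64), Folr2 (2.90) and Cbr2 (1.59). All 9 markers together summed to 77.3 to 87.1 CPM in nTg, 71.6 to 98.7 in Clec7a-KO, 139 to 162 in SOD1G93A and 148 to 199 in SOD1G93A/Clec7a-KO microglia. Stab1, which was not called, made up most of the nTg sum, at 74.9 to 85.2 CPM, and was at 57.4 to 90.1 CPM in SOD1G93A. Ms4a7 was at 0 to 0.746 CPM in nTg and 34.55 to 86.1 CPM in SOD1G93A. Summed dendritic cell markers were at 32.1 to 55.3 CPM over all groups with 0 of 5 tested called by edgeR. Summed monocyte markers were at 5.34 to 22 CPM in nTg, 7.58 to 10.7 in Clec7a-KO, 18.7 to 27.4 in SOD1G93A and 16.8 to 29.6 in SOD1G93A/Clec7a-KO microglia, with 1 of 4 tested called higher (Ms4a4c). Summed T and NK cell markers were at 0.321 to 1.94 CPM in nTg, 0.198 to 0.645 in Clec7a-KO, 3.40 to 7.73 in SOD1G93A and 0.344 to 1.04 in SOD1G93A/Clec7a-KO, with 1 of 2 tested called higher (Klrb1c). The part of any of these in the class II change was not tested.

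**Figure D3:**
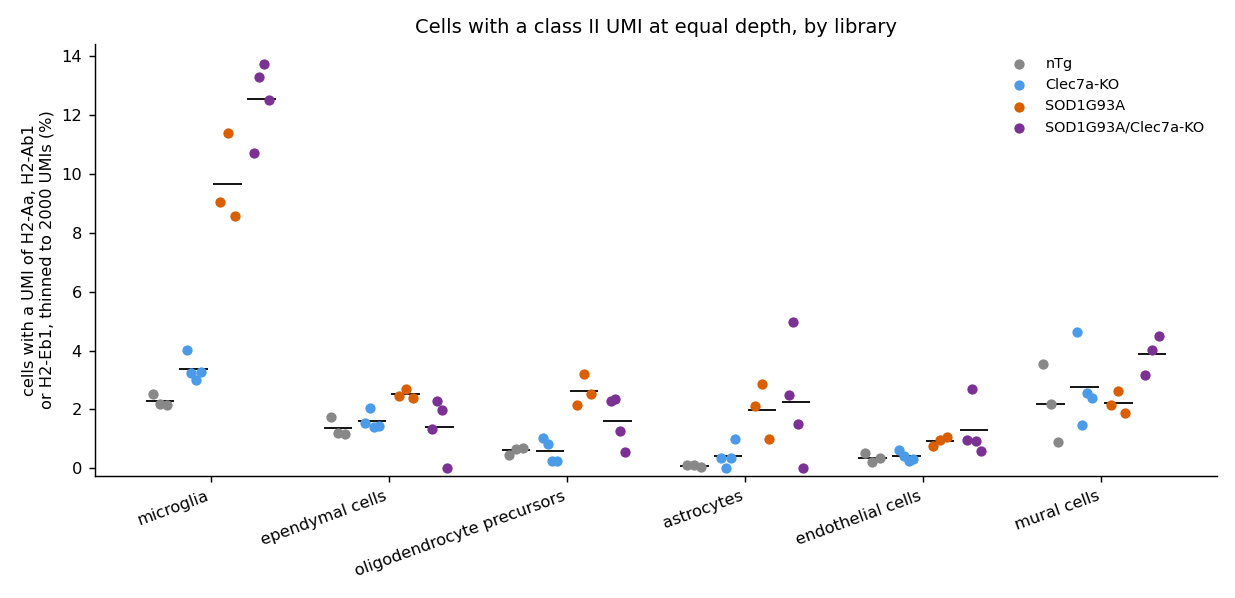
Percent of cells with a UMI of H2-Aa, H2-Ab1 or H2-Eb1 after thinning each cell to 2000 UMIs, by cell class, with 1 point per library and a bar at the mean of each of the 4 groups. Microglia of libraries with the transgene lie between 8.57% and 13.7%, above every library of the other classes shown.

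The part of class II UMIs that lay in microglia was higher in libraries with the transgene, and by how much depended on the gene. Of all H2-Aa UMIs in kept cells, microglia held 2.99% to 24.1% in nTg, 4.34% to 27.0% in Clec7a-KO, 35.5% to 60.5% in SOD1G93A and 44.3% to 77.9% in SOD1G93A/Clec7a-KO libraries. Border-associated macrophages held 57.7% to 90.4% in nTg and 25.7% to 37.5% in SOD1G93A. Of Cd74 UMIs, microglia already held 65.7% to 76.1% in nTg and 37.9% to 64.1% in Clec7a-KO, against 79.75% to 88.8% in SOD1G93A and 82.8% to 92.96% in SOD1G93A/Clec7a-KO. For B2m the microglial part was 59.2% to 63.4% in nTg and 92.8% to 94.8% in SOD1G93A, while the endothelial part was 18.4% to 21.7% and 1.78% to 2.85%. These parts move with the number of cells recovered in a class as well as with the RNA per cell: 959 to 2404 microglia were kept per nTg library and 3979 to 6094 per SOD1G93A library.

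Microglia formed 10 clusters, and the members were not all highest in the same one. The following levels are medians over the SOD1G93A libraries and then over the SOD1G93A/Clec7a-KO libraries, and are a description, since clusters were drawn from the same cells. H2-Aa was high in clusters led by Gpnmb (49.5 and 51.5 CPM) and by Mmp12 (43.4 and 42.5 CPM), lysosomal and matrix genes of disease-associated microglia. In a cluster led by Il4i1 and Ccl6 it was at 21.5 and 56.7 CPM, high in the second group alone. H2-Eb1 was at 24.6 and 22.6 CPM in the Gpnmb, 18.4 and 18.4 in the Mmp12 and 10.4 and 24.8 in the Il4i1 cluster. H2-Ab1 was at 60.8 and 71.8 CPM in the Gpnmb, 67.2 and 61.3 in the Mmp12 and 49.3 and 84.8 in the Il4i1 cluster, so the order of these clusters differed between the groups. Cd74 was at 358 and 806 CPM in the Il4i1 cluster and at 415 and 699.8 CPM in a cluster led by Il12b, Tnfsf9 and Il1rn, again in opposite order. In the cluster led by Crybb1, P2ry12 and Tmem119, genes of resting microglia, H2-Aa was at 2.06 and 1.83 CPM and Cd74 at 197 and 247 CPM.

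In the cluster led by Ifit2 and Ifit3, genes induced by type I interferon, 4 class I genes were higher than in the Gpnmb cluster in each of the 7 libraries with the transgene. Tap1 was at 107 and 159 CPM there against 40.1 and 40.4 CPM, and Nlrc5 at 23.1 and 19.9 against 5.52 and 4.11 CPM. H2-K1 was at 1149 and 1510 against 873 and 901 CPM, and B2m at 4797 and 3126 against 4375 and 2560 CPM. H2-D1 was higher in the Gpnmb cluster in all 3 SOD1G93A libraries and higher in the Ifit2 cluster in all 4 SOD1G93A/Clec7a-KO libraries. H2-Aa in the Ifit2 cluster was at 13.1 and 34.7 CPM. The proliferating cluster, led by Mki67, had Tap1 at 73.2 and 77.5 CPM and H2-Aa at 8.85 and 7.33 CPM. When the antigen presentation genes were kept for clustering, a cluster of 1256 cells led by class II genes appeared, and its cells came from several of the former clusters, 25.5% from the Il4i1 cluster, 18.4% from the Il12b cluster, 15.7% from the Mmp12 cluster and 14.7% from the Gpnmb cluster.

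**Figure D4:**
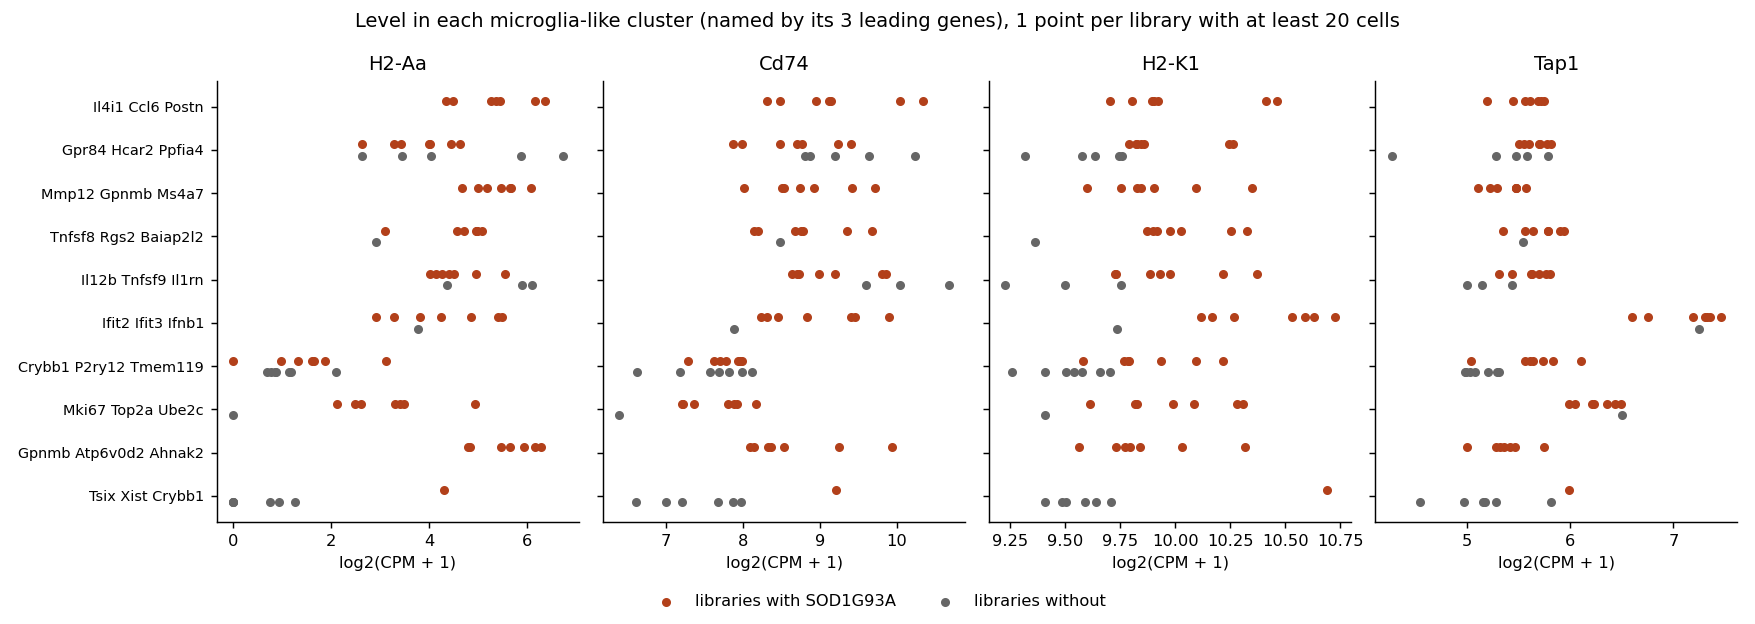
Level of H2-Aa, Cd74, H2-K1 and Tap1 in each microglial cluster, as log2(CPM + 1), with 1 point per library that held at least 20 cells of the cluster, coloured by whether the library carried SOD1G93A. CPM is without the scaling factors here. Among libraries with the transgene, the median of H2-Aa is lowest in the cluster led by Crybb1, P2ry12 and Tmem119 (2.06 and 1.83 CPM in the 2 groups), and Tap1 is highest in the cluster led by Ifit2, Ifit3 and Ifnb1.

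Cluster make-up differed between groups, so the comparison was repeated in the clusters with P2ry12 and Tmem119 among their leading genes, an alternative chosen after seeing the data. These clusters (15045 cells) held 91.7% to 96.5% of microglia in libraries without the transgene and 1.03% to 10.4% in those with it, where 77 to 636 cells per library remained. Among 12995 tested genes, 96 (0.739%) were called in SOD1G93A against nTg. H2-Ab1 was called there, at 15.96, 19.6 and 31.99 CPM in SOD1G93A against 9.19, 8.68 and 6.62 CPM in nTg, and the log2 fold change was 1.37 (SE 0.26, adjusted p = 0.0161). Cd74 had an estimate of -0.041 (SE 0.31) in these clusters. H2-Eb1 had one of -0.15 (SE 0.77), on 3, 0 and 2 UMIs in the SOD1G93A libraries, too few to tell a rise from none. H2-Aa had one of 1.496 (adjusted p = 0.433), on 1 to 9 H2-Aa UMIs per library with the transgene. The 5 class I genes had estimates from 0.45 (H2-K1) to 1.28 (Nlrc5), with adjusted p from 0.189 to 0.388. Each of these 5 had an unadjusted p under 0.05 by edgeR, beside 1563 of the 12995 genes. In SOD1G93A/Clec7a-KO against Clec7a-KO, where 1.97% of genes were called, Tap1 was the called member (log2 fold change 0.73, SE 0.17, adjusted p = 0.0282).

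In other clusters with cells on both sides, the order of libraries with and without the transgene differed by cluster and gene, on few cells and with no test. These CPM are again without the scaling factors, which were 0.772 to 0.932 for microglia with the transgene and 1.05 to 1.25 without it. They are thus not on the scale of the microglial levels above, and the part of this in the order was not tested. In the cluster led by Gpr84 and Hcar2, Cd74 was at 415, 234 and 254.5 CPM in SOD1G93A and at 469 and 587 CPM in the 2 nTg libraries with at least 20 such cells (34 each). H2-Aa there was at 14.9, 15.2, 23.6 and 20.9 CPM in SOD1G93A/Clec7a-KO and at 105, 9.84 and 57.7 CPM in 3 Clec7a-KO libraries (62 to 89 cells). In the Il12b cluster, H2-Aa was at 20.1, 30.0 and 18.1 CPM in SOD1G93A and 15.1 to 45.96 CPM in SOD1G93A/Clec7a-KO. It was at 19.7 CPM in 1 nTg library and at 67.7 and 58.9 CPM in 2 Clec7a-KO libraries (30 to 44 cells). Cd74 in that cluster was at 397 to 923 CPM with the transgene and at 773, 1046 and 1626 CPM in those 3 libraries. The clusters led by Tnfsf8, Ifit2 and Mki67 had 1 Clec7a-KO library each with enough cells. Cd74 was at 358, 236 and 83.6 CPM there, and at 407 to 815, 456 to 949 and 148 to 287 CPM in SOD1G93A/Clec7a-KO. For class I, H2-D1 in the Gpr84 cluster was at 1453 to 2560 CPM in SOD1G93A and 1046 to 1108 CPM in nTg.

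Outside microglia, class I genes rose in ependymal cells of the mice with the transgene. H2-K1 was at 181, 274 and 225 CPM in SOD1G93A against 77.9, 79.9 and 88.5 CPM in nTg ependymal cells. In the knockout arms it was at 191, 295, 254 and 213 CPM with the transgene and at 109, 89.0, 68.1 and 74.7 CPM without it. The groups did not overlap in either arm. H2-K1 rose by 1.48 on the log2 scale (SE 0.20, adjusted p = 0.0007) and by 1.503 (SE 0.18, adjusted p = 0.000135). H2-D1 rose by 1.88 (SE 0.23) and 1.51 (SE 0.20) and B2m by 2.17 (SE 0.37) and 1.55 (SE 0.32). In the first of these comparisons 3 of the 8 tested members were called against 0.907% of all genes, and in the second 4 of 8 against 1.33%, Cd74 being the fourth (2.55, SE 0.54). Tap1 and Nlrc5 were not called in either. B2m was not called in the first comparison with sex as a covariate (adjusted p = 0.158). In the second, B2m and Cd74 were not called without the first or the second SOD1G93A/Clec7a-KO or the second or the third Clec7a-KO library, nor B2m without the fourth Clec7a-KO library (adjusted p = 0.0544 to 0.116 for B2m and 0.0669 to 0.108 for Cd74). DESeq2 did not call B2m there either (adjusted p = 0.0518).

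Ependymal cells also held microglial RNA. The 12 microglial markers summed to 236 to 266 CPM in nTg, 238 to 635 in Clec7a-KO, 431 to 865 in SOD1G93A and 379 to 876 in SOD1G93A/Clec7a-KO ependymal cells, and 3 of 12 were called higher in SOD1G93A. Relative to microglia of the same library, these markers stood at 1.52% to 1.81% in nTg and 2.98% to 5.53% in SOD1G93A. H2-K1 stood at 12.2% to 13.9% and 17.5% to 21.0% of its microglial level, above the markers. B2m stood at 2.36% to 3.06%, above the markers, and then at 3.37% to 6.73%, overlapping them. Cd74 stood at 0.329% to 1.76%, overlapping the markers or below them, and then at 2.07% to 2.59%, below them. The part of microglial RNA in the B2m and Cd74 changes was not tested.

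In astrocytes all 7 members that passed the filter on low counts were called in SOD1G93A against nTg, but 36% of all 13044 tested genes were called too. H2-D1 was at 567, 836 and 277 CPM in SOD1G93A against 65.9, 82.6 and 72.2 CPM in nTg astrocytes (log2 fold change 2.93, SE 0.31, adjusted p = 8.73e-06). H2-K1 rose by 0.94 (SE 0.22), B2m by 2.27 (SE 0.31), Tap1 by 1.39 (SE 0.28), Nlrc5 by 2.23 (SE 0.63) and Cd74 by 3.26 (SE 0.93). H2-Ab1 rested on 37 UMIs in SOD1G93A and 2 in nTg astrocytes, a ratio of pooled counts of 38.0 (exact 95% interval 9.81 to 326, counting error only). It passed the filter on low counts through the libraries with the transgene, where it was high. In SOD1G93A/Clec7a-KO against Clec7a-KO, 6 of 7 were called beside 33.5% of all genes. Nlrc5 was not called in SOD1G93A without the second library of that group (1.38, adjusted p = 0.123), nor Cd74 without the first (adjusted p = 0.127) or without the third nTg library (adjusted p = 0.0505), nor with sex as a covariate (adjusted p = 0.074).

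Microglial markers moved with these astrocyte values. They summed to 186 to 331 CPM in nTg, 334 to 1372 in Clec7a-KO, 768 to 5554 in SOD1G93A and 2472 to 4271 in SOD1G93A/Clec7a-KO astrocytes, with 11 of 12 called higher in SOD1G93A. This was 1.19% to 2.06% of the microglial level in nTg and 5.31% to 35.5% in SOD1G93A. H2-K1 stood at 28.6% to 34.5% and 23.3% to 47.9% of its microglial level, and Cd74 at 0.159% to 5.09% and 2.46% to 23.8%. The part of microglial RNA in the astrocyte changes was not tested.

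Endothelial cells, with high class I levels in every group, gave no called member among 9 tested in any comparison by edgeR or DESeq2. In each comparison of the transgene 1 had an unadjusted p under 0.05, beside 816 and 1386 of all 13192 genes. In SOD1G93A against nTg, where 1.08% of genes were called, H2-K1 differed by 0.27 (95% interval -0.32 to 0.86) and Tap1 by 0.06 (-0.41 to 0.53). In SOD1G93A/Clec7a-KO against Clec7a-KO (1.04% called) the H2-K1 estimate was 0.42 (-0.10 to 0.93). Mural cells had no called member among 5 tested either (0.106% and 0.159% of genes called), and 2 and 3 had an unadjusted p under 0.05, beside 387 and 516 of all 7547 genes. In oligodendrocyte precursors 1 of 7 tested members was called in SOD1G93A against nTg, beside 1.42% of all genes: H2-Ab1 was at 7.21, 12.5 and 8.24 CPM against 0.937, 1.45 and 1.44 CPM (log2 fold change 2.83, SE 0.47, adjusted p = 0.00248), on 20 to 34 and 3 to 5 UMIs per library. H2-Ab1 passed the filter on low counts here through the libraries with the transgene, where it was high. It was not called with sex as a covariate (adjusted p = 0.146), while DESeq2 called 3 members. Microglial markers in these cells summed to 201 to 434 CPM in SOD1G93A and 88.5 to 135 CPM in nTg, and their part in the change was not tested. In SOD1G93A/Clec7a-KO against Clec7a-KO precursors 0 of 7 were called by edgeR (2.77% of genes) and 2 by DESeq2, on 1 to 13 H2-Ab1 UMIs per Clec7a-KO library. Of these 7, 6 had an unadjusted p under 0.05, beside 2360 of all 13082 genes. In neither Clec7a comparison was a member called in any of these 6 classes by edgeR or DESeq2, and outside microglia 1 member each of astrocytes and oligodendrocyte precursors (without the transgene) and of mural cells (with it) had an unadjusted p under 0.05. Over all genes this held for 404 of 13044, 390 of 13082 and 651 of 7547. Few genes were called there at all: 0.00767% and 0% of those tested in astrocytes, 0.00758% and 0% in endothelial cells, 0.0261% and 0.0261% in ependymal cells, 0.00764% and 0.0153% in oligodendrocyte precursors and 0% in mural cells, for the comparison with and without the transgene. Whether the change differed between classes was not tested.

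**Figure D5:**
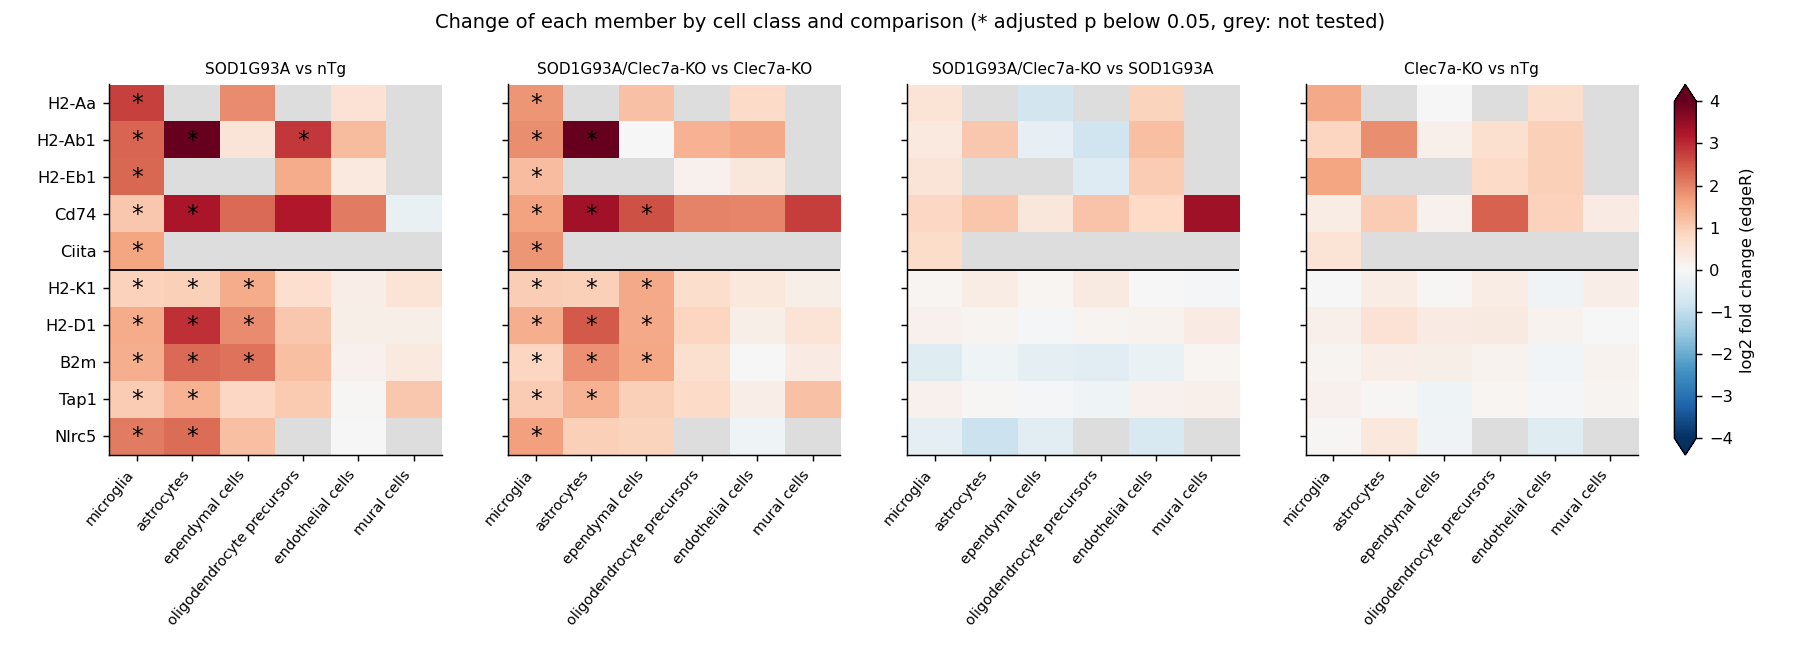
Log2 fold change of each of the 10 genes (rows, class II above the line and class I below it) in 6 cell classes (columns) for the 4 comparisons, from red for higher in the first group to blue for lower, with a star at an adjusted p below 0.05 and grey where a gene did not pass the filter on low counts. Stars appear in the 2 panels that compare libraries with and without the transgene and not in the 2 that compare Clec7a genotypes.

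Other genes of the pathway were counted by list in microglia. Of 12 genes of class I peptide loading and processing, 9 rose and 0 fell in SOD1G93A against nTg, and 9 rose and 0 fell in SOD1G93A/Clec7a-KO against Clec7a-KO, beside 19.2% and 24.9% of all genes called higher. The list medians were 0.82 and 0.81, beside 0.003 and -0.007 over all genes. Psmb8, an immunoproteasome subunit, was at 337 ± 39.5 CPM (SD, n = 3) in SOD1G93A and 153 ± 9.497 (n = 3) in nTg (log2 fold change 1.14, SE 0.15). Calr, a chaperone of peptide loading, rose by 1.15 (SE 0.34), and Psme2, a proteasome activator subunit, by 0.95 (SE 0.20) in SOD1G93A and by 1.20 (SE 0.17) in the knockout arms. Of 9 other class I heavy chain genes, 5 rose and 1 fell in SOD1G93A, and 4 rose and 1 fell in the knockout arms (medians 0.96 and 0.71). The latter count is near the 45.2% of all genes called. H2-M3, which presents formylated peptides, rose by 1.26 (SE 0.26), H2-T22 by 1.25 (SE 0.33) and Mr1, which presents microbial metabolites, by 1.16 (SE 0.18).

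Of 11 tested class II accessory genes, 4 rose and 1 fell in each of these comparisons, beside the 31.7% and 45.2% of all genes called, so their count was near the background. March1, a ubiquitin ligase that removes class II molecules from the surface, was the one that fell, at 38.8 ± 2.88 CPM in SOD1G93A and 87.7 ± 11 in nTg, and the log2 fold change was -1.18 (SE 0.21, adjusted p = 0.000769). In the knockout arms its log2 fold change was -1.43 (SE 0.18). Ctsl, a lysosomal protease, rose by 1.00 (SE 0.26), and H2-DMb1, a chain of the peptide exchange factor, by 0.75 (SE 0.13) in the knockout arms. Of 7 regulators of class II promoters, 0 rose and 3 fell in SOD1G93A (log2 fold change -0.54 for Nfya, -0.51 for Rfx5 and -0.34 for Nfyb), and 0 rose and 4 fell in the knockout arms. Of all genes, 12.5% and 20.3% were called lower, and the regulator counts in either direction were not far from the 31.7% and 45.2% above. The list medians were 0.42 and 0.35 for the accessory genes and -0.06 and -0.37 for the regulators.

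Among 7 tested genes of the interferon-gamma arm, 2 rose and 1 fell in SOD1G93A, and 3 rose and 1 fell in the knockout arms (medians 0.38 and 0.17), again near the 31.7% and 45.2% over all genes. Ifngr1, a receptor chain, fell from 372 ± 41.7 CPM in nTg to 214 ± 7.44 in SOD1G93A (log2 fold change -0.80, SE 0.18). Of 5 tested costimulation genes 1 rose, beside 19.2% of all genes: Cd274, the inhibitory ligand PD-L1, was at 101 ± 19.7 CPM in SOD1G93A and 19.9 ± 3.26 in nTg, and the log2 fold change was 2.35 (SE 0.26, adjusted p = 1.31e-05). It rose by 1.83 (SE 0.22) in the knockout arms. Of 2 tested T cell partner genes none passed by edgeR, and 0 of 2 had an unadjusted p under 0.05 in either comparison. In the comparisons of Clec7a genotypes 0 genes of any of these lists were called in microglia.

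In ependymal cells 1 of 12 peptide loading genes rose in SOD1G93A and 3 of 12 in the knockout arms, Psmb8 in both, and 2 and 3 of 7 tested other heavy chain genes, beside 0.907% and 1.33% of all genes called. In astrocytes 9 of 12 peptide loading genes and 10 of 10 tested class II accessory genes rose in SOD1G93A, beside 36% of all genes called and the rise of the microglial markers given above. Of the 7 class II regulators 0 rose and 2 fell in astrocytes, and in ependymal cells 0 were called by edgeR and 0 had an unadjusted p under 0.05.

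Genes whose microglial profile over the 14 libraries was most like the mean profile of the members were ranked by the root mean square difference of centred log2 CPM, over 7785 genes. For class II (Ciita, and Nlrc5 for class I, left out for low counts) the nearest were AW112010 (0.46), Pgam1 (0.47), Ms4a4c (0.48), Atp13a2 (0.48) and Fth1 (0.48), against 1.09 for the median gene. For class I they were Lrp12 (0.13), Tlnrd1 (0.15), Smim3 (0.16), Gnas (0.17) and Bcl2a1b (0.17), against 0.58. AW112010 was at 49.6 ± 17.1 CPM in SOD1G93A and 14.4 ± 0.66 in nTg microglia. Lrp12 was at 36.4 ± 7.68 and 15.3 ± 0.41 CPM.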

How the data were processed

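The authors deposited, for each of the 14 libraries, a filtered count matrix of whole UMI counts per gene and barcode; the matrix headers name software version 3.0.2, and the submitters' processing notes name Cell Ranger, Seurat, DESeq2 and mm10 without roles. The extraction text of the labels describes 3′ libraries. Everything below was computed from these counts.

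The members, lists, markers and tests were chosen with earlier results of these data known. Barcodes with under 500 genes, under 1000 UMIs or over 15% mitochondrial UMIs (7127 low in depth, 4963 high in mitochondrial UMIs) and 7577 predicted doublets (2.49% to 9.90% per library, by simulated doublets) were removed. Libraries shared 2 to 44 barcodes per pair, at most 0.474% of the smaller. The remaining cells were clustered (scanpy 1.11.5) without the antigen presentation genes, giving 27 clusters, 10 of them microglial; 5926 cells stayed unnamed.

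Counts were summed per library and class. Classes with at least 20 cells in all 14 libraries were tested with edgeR 4.0.16 (quasi-likelihood, TMM, filterByExpr, 4 groups in one fit); the fit was first tested on simulated data. Intervals use a t distribution with 10 residual degrees of freedom. Genes outside the members were named by size of change, up to 3 per list and comparison, among called genes with a mean of at least 10 CPM. DESeq2 1.42.0, other scaling, filters, covariates, clusterings and left-out libraries were the alternatives.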

Additional observations from a re-analysis of the deposited data

Results flagged for a closer look

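Within groups of 4 libraries, 52 sets of values of the 10 genes were examined for a library far from the other 3, and 3 stood out; chance alone gives about 1 in 20. Nlrc5 in microglia was at 1.55 CPM in the fourth Clec7a-KO library, where the next lowest was at 2.13 CPM. Cd74 in ependymal cells was at 14.8 CPM in the second SOD1G93A/Clec7a-KO library, where the next highest was at 11.6 CPM. Tap1 in astrocytes was at 51.6 CPM in the second SOD1G93A/Clec7a-KO library, where the next highest was at 30.5 CPM.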

How the results depend on the processing

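In SOD1G93A against nTg microglia, 3 class II genes were called with sex as a covariate, and leaving out one library at a time gave 3 to 5. In the clusters led by P2ry12 and Tmem119 alone, 1 class II and 0 class I genes were called. Cd74 was at -0.041 there and H2-Eb1 at -0.15, the latter on 0 to 3 UMIs per SOD1G93A library. Fewer cells and 12995 genes entered that fit. In SOD1G93A/Clec7a-KO against Clec7a-KO, 3 class II genes were called with only these 2 groups in the fit, 3 to 5 with single libraries left out, and 0 in those clusters, where 1 class I gene was called. Cd74 in SOD1G93A against nTg was also lost in edgeR with relative log expression factors in place of TMM (1.03, adjusted p = 0.0557) and without any one of 10 libraries.

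The labels' replicate numbers did not pair the libraries: correlations of same-number libraries ran from -0.16 to 0.41, 7 of 19 were over 0.1, and 5 of 14 libraries correlated best with their own number. With the number as a block, 5 class II and 5 class I genes were called in microglia of SOD1G93A against nTg (5954 of 16654 genes, against 5282 without the block), and 4 and 3 members in oligodendrocyte precursors of the 2 comparisons of the transgene.

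In oligodendrocyte precursors the first comparison gave 7 members with no filter, 3 with library number as a covariate, 0 with sex, 3 with DESeq2 and 1 to 3 with single libraries left out; the second gave 4 with no filter, 3 with library number, 2 with DESeq2 and 0 to 3. Ependymal calls in the second comparison ranged from 2 to 4 without single libraries, and endothelial and mural calls from 0 to 1. Mural cells also gave 1 with library number. With no filter, 2 astrocyte members were called in SOD1G93A/Clec7a-KO against SOD1G93A and 1 in Clec7a-KO against nTg, 1 endothelial member in each transgene comparison, 1 mural member in SOD1G93A/Clec7a-KO against each other group it was set against, and 1 precursor member in Clec7a-KO against nTg. The difference in the share of class II microglia between SOD1G93A/Clec7a-KO and Clec7a-KO ranged from 8.78 to 9.79 points without single libraries (exact permutation p = 0.0571, the smallest possible with 3 against 4). The cause of these changes was not tested. Low counts limit Ciita in microglia and class II genes elsewhere.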

Other observations

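H2-Ab1 in ependymal cells was closer to its microglial level than the other class II chains. In nTg libraries it was at 8.82, 6.44 and 3.75 CPM, which is 34.9% to 86.3% of its level in microglia of the same library, while the 12 microglial markers stood at 1.52% to 1.81% and Cd74 at 0.329% to 1.76%. H2-Aa in the same cells was at 0.345, 0.853 and 0.484 CPM and H2-Eb1 at 0.269, 0.379 and 0.121 CPM. These levels were 7.54% to 26.03% and 3.45% to 16.9% of those in microglia, above the markers but on few UMIs. In these nTg libraries 3 UMIs stood at 0.115, 0.284 and 0.363 CPM. The H2-Eb1 level of 0.121 CPM lay below 3 UMIs in its library, so its percentage there cannot be set against the markers. Ciita ranged from 0 to 81.1%. In ependymal cells of the SOD1G93A libraries H2-Ab1 was at 7.04 to 11.2 CPM, overlapping the nTg range, which is 14.9% to 17.4% of the microglial level there. It was listed at 0 in the fourth SOD1G93A/Clec7a-KO library, which held 28 ependymal cells.

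In border-associated macrophages Ciita ranged from 17.8 to 101 CPM over 11 libraries and Cd74 from 5850 to 34620 CPM. The fourth Clec7a-KO and the fourth SOD1G93A/Clec7a-KO library had the 2 highest Cd74 levels in these cells (34620 and 25720 CPM) and, in their groups, also the highest in microglia (343 and 1042 CPM).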
